A study of Mus musculus with 7 samples.

Results

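The urea cycle turns ammonia, which is released when amino acids are broken down, into urea, and periportal hepatocytes are its main site in the body. It starts in the mitochondrion, where carbamoyl phosphate is made from ammonia and bicarbonate and joined to ornithine, and ends in the cytosol, where arginine is split into urea and ornithine. Ammonia that escapes the cycle is captured as glutamine by perivenous hepatocytes. The transcripts of the enzymes are known to be raised by glucagon and glucocorticoids.

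The genes described are 10 that encode the enzymes and carriers of the cycle and its glutamine branch, and they are given in the order in which nitrogen passes through them. A gene was measured where at least 1 probe set of the array carried its symbol alone, which held for 8 of the 10, with 9 probe sets among the 28853 of the array. *Ass1*, argininosuccinate synthetase, was named only by 2 probe sets that also carry the symbol *Gm5424*. *Gls2*, liver glutaminase, was named by none of the annotated probe sets and is not analysed here.

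Primary hepatocytes of male C57BL/6J mice, purified on a Percoll gradient and grown with insulin and dexamethasone, were transfected with 1 µg of a miR-709 mimic (4 arrays, replicates A to D) or of Cel-239b, a worm miRNA that served as control (3 arrays, replicates B to D). All arrays came from RNA taken 24 h after transfection. The ages of the mice are not given in the sources used here, nor whether each replicate was a separate mouse or isolation, and p-values therefore speak only to the spread between these arrays. Values are log2 signals after RMA, which subtracts background, brings the arrays to one distribution and merges the probes that make up each probe set. A gene counted as higher or lower with miR-709 when limma gave it an adjusted p under 0.05 over 19938 genes, and the number of arrays limits the precision.

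Markers of the labelled cell type were strong on these arrays, since 11 of 11 measured hepatocyte markers had a mean log2 signal that reached 6. So did 1 of 11 Kupffer cell and leukocyte markers, 0 of 10 sinusoidal endothelial markers, 4 of 12 stellate cell and myofibroblast markers and 2 of 7 cholangiocyte markers. Over all genes, 8638 of 19938 reached 6. *Cps1* is on the hepatocyte list, and without it 10 of 10 reached 6. Bright markers of the other types included *Vim*, *Cd68* and *Krt19*, with means of 12.39, 10.62 and 9.58 on the Cel-239b arrays. The study reported *Rab11b* (vesicle traffic) and *Dync1li1* (dynein motor) as lower and *Cyp2c29*, a cytochrome P450, as higher on these same arrays. As a check of the labels only, *Rab11b* and *Dync1li1* were lower and *Cyp2c29* was higher on every miR-709 array than on all controls. Of 15 measured interferon response genes 0 were called by limma and 3 had an unadjusted p under 0.05, but their mean set miR-709 replicates C and D apart, at 0.96 and 0.96 above the Cel-239b mean on the log2 scale, while A was at -0.11 and B at -0.04. Fewer cells of a type and less RNA per cell cannot be told apart in these bulk samples.

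*Cps1*, the enzyme that commits ammonia to the cycle, was 1.60-fold higher with miR-709 (95% interval 1.33-fold to 1.93-fold), and the other 7 measured genes did not pass the test. By limma 1 of 8 was called higher and 0 of 8 lower, where 1.81% and 1.47% of all genes were, and the plain test of the study's methods called 0 of 8 after adjustment. At an unadjusted p under 0.05 there were 3 of 8 genes (*Cps1*, *Slc25a13* and *Arg1*), where 15.0% of all genes passed. In the same 3 genes the values of the 2 treatments did not overlap, as in 12.3% of all genes. The median log2 fold change of the 8 genes was 0.08, against 0.01 for all genes, and 6 of 8 were above 0, against 54.9% of all genes.

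**Figure D1:**
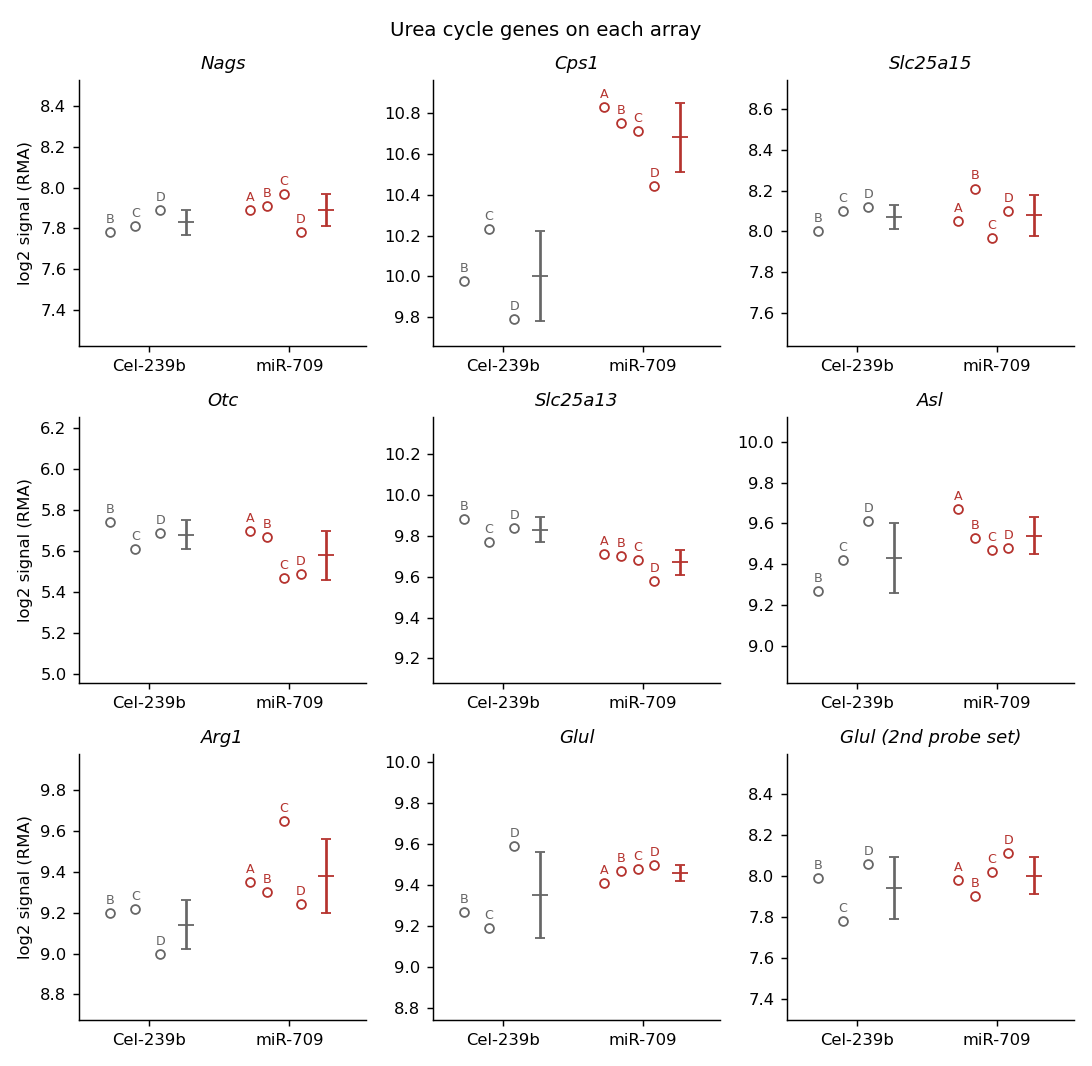
Log2 signal (RMA) of the 9 probe sets of 8 urea cycle genes by array, with 3 controls (Cel-239b) in grey and 4 miR-709 arrays in red, each circle marked with its replicate letter and the mean ± SD drawn beside it. Every panel spans the same range of log2 units and no axis starts at 0. The treatments stand apart by 0.21 or more in *Cps1* alone, from 9.79 to 10.23 with Cel-239b and from 10.44 to 10.83 with miR-709.

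*Nags* makes N-acetylglutamate, the activator that carbamoyl phosphate synthetase needs in order to work. Its log2 signals were 7.78, 7.81 and 7.89 on Cel-239b replicates B to D and 7.89, 7.91, 7.97 and 7.78 on miR-709 replicates A to D. The treatments overlapped, with miR-709 replicate D as low as the lowest control and replicates B and C above the highest. The log2 fold change was 0.06 (95% interval -0.08 to 0.20, adjusted p = 0.721).

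*Cps1* encodes carbamoyl phosphate synthetase, the most abundant protein of the liver mitochondrial matrix. Its log2 signals were 9.98, 10.23 and 9.79 on Cel-239b replicates B to D, and 10.83, 10.75, 10.71 and 10.44 on miR-709 replicates A to D. The lowest array with miR-709, replicate D, lay 0.21 above the highest control, replicate C. The SD was 0.22 over the controls and 0.17 over the miR-709 arrays.

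The log2 fold change of *Cps1* was 0.68 (standard error 0.12, 95% interval 0.42 to 0.95, adjusted p = 0.0136 from limma). *Cps1* also had the widest spread within a treatment among the 8 genes, with a residual SD of 0.19 where the median of all genes was 0.10. The call rested on single arrays, for the adjusted p became 0.0742 when control B was left out, 0.0544 when control D was, 0.0525 for miR-709 replicate B and 0.0554 for its replicate C. With the plain test of the methods it was 0.157. It ran from 0.00436 to 0.157 over 20 alternatives, and the fold change stayed between 0.58 and 0.80.

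Without both miR-709 replicates that had high interferon genes, the log2 fold change of *Cps1* was 0.79 (adjusted p = 0.0789 from limma, on 2 arrays against 3). Relative to the control mean, miR-709 replicates A to D had *Cps1* at 0.83, 0.75, 0.71 and 0.44 in that order. *Cps1* was lowest on D among them. Whether the interferon response had a part in the rise of *Cps1* was not tested.

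*Slc25a15* carries ornithine into the mitochondrion and citrulline out of it. Its log2 signals were 8.00, 8.10 and 8.12 on the Cel-239b replicates B to D and 8.05, 8.21, 7.97 and 8.10 on the miR-709 replicates A to D. The highest and the lowest of the 7 values were both from miR-709 arrays, and the log2 fold change was 0.01 (95% interval -0.15 to 0.17, adjusted p = 0.972). *Slc25a2*, a second ornithine carrier, did not pass the test either (log2 fold change -0.09, adjusted p = 0.683).

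*Otc* joins carbamoyl phosphate to ornithine and so makes citrulline. It had log2 signals of 5.74, 5.61 and 5.69 on the Cel-239b replicates B to D and of 5.70, 5.67, 5.47 and 5.49 on the miR-709 replicates A to D. Only replicates C and D with miR-709 lay below the controls. The log2 fold change was -0.10 (95% interval -0.27 to 0.07, adjusted p = 0.608). This probe set was close to the median of the arrays, which was 5.04 to 5.07, and a change of a dim probe set can be understated.

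*Slc25a13*, or citrin, exports aspartate from the mitochondrion and so supplies the second nitrogen of urea. Its log2 signals were 9.88, 9.77 and 9.84 on the Cel-239b replicates B to D and 9.71, 9.70, 9.68 and 9.58 on the miR-709 replicates A to D. All 4 miR-709 arrays were below the 3 controls, by a margin of 0.06. The log2 fold change was -0.16 (standard error 0.06, 95% interval -0.30 to -0.03), and it did not pass the test (adjusted p = 0.230). *Slc25a12*, the carrier of the same kind in muscle and brain, had a log2 fold change of 0.23 (adjusted p = 0.237), and its treatments overlapped.

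Argininosuccinate synthetase, the next enzyme, has no value of its own for the reason given above, and its shared probe sets are described at the end. *Asl* splits argininosuccinate into arginine and fumarate. Its log2 signals were 9.27, 9.42 and 9.61 on the Cel-239b replicates B to D and 9.67, 9.53, 9.47 and 9.48 on the miR-709 replicates A to D. The range of the controls held 3 of the 4 miR-709 arrays, all but replicate A, and the log2 fold change was 0.10 (95% interval -0.09 to 0.30, adjusted p = 0.645).

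*Arg1*, liver arginase, releases urea and returns ornithine to the cycle. Its log2 signals were 9.20, 9.22 and 9.00 on the Cel-239b replicates B to D and 9.35, 9.30, 9.65 and 9.24 on the miR-709 replicates A to D. All miR-709 arrays were above all controls, but D by no more than 0.02 and C by far the most. The log2 fold change was 0.25 (standard error 0.10, 95% interval 0.01 to 0.48), and it did not pass the test (adjusted p = 0.304). *Arg2*, the mitochondrial arginase of other tissues, had a mean log2 signal of 3.27 with Cel-239b and 3.29 with miR-709.

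*Glul*, glutamine synthetase, is the perivenous enzyme that takes up the ammonia left by the cycle. Its brighter probe set had log2 signals of 9.27, 9.19 and 9.59 on the Cel-239b replicates B to D and of 9.41, 9.47, 9.48 and 9.50 on the miR-709 replicates A to D. All the miR-709 arrays lay inside the range of the controls, and the log2 fold change was 0.12 (95% interval -0.09 to 0.32, adjusted p = 0.620). Its other probe set ran from 7.78 to 8.06 with Cel-239b and from 7.90 to 8.11 with miR-709, and had a log2 fold change of 0.06 (adjusted p = 0.800 over all probe sets). Both probe sets had Cel-239b replicate C as the lowest and replicate D as the highest of the controls.

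The log2 fold changes of the 7 genes that did not pass the test lay between -0.16 and 0.25. The upper ends of their 95% intervals ran from 0.98-fold for *Slc25a13* to 1.39-fold for *Arg1*, and the lowest of the lower ends was 0.81-fold. Each interval bounds that gene's own change at its own spread. The intervals of 6 of the 7 lay wholly below that of *Cps1*, which starts at 1.33-fold, and that of *Arg1* overlapped it. No test of one gene's change against another's was run.

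**Figure D2:**
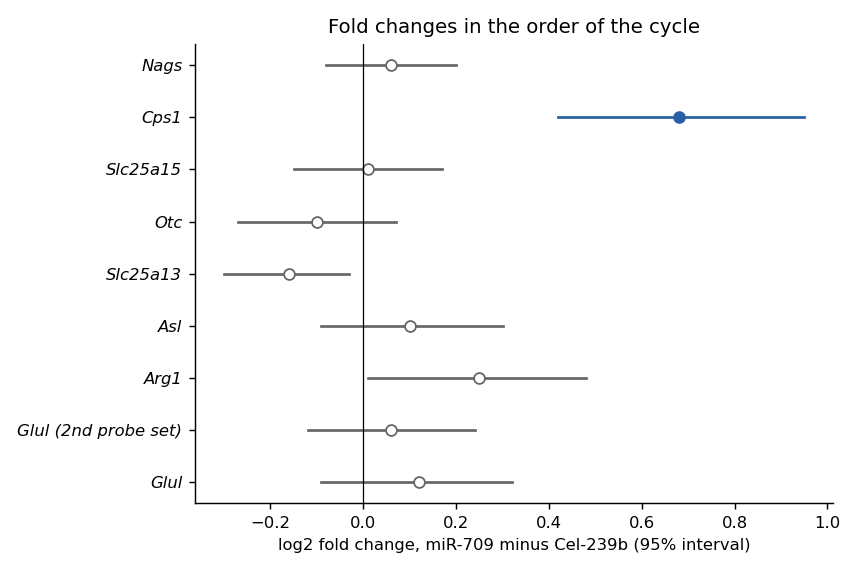
Log2 fold change of each probe set, miR-709 minus Cel-239b, with its 95% interval from limma, in the order of the cycle from top to bottom; the filled blue point has an adjusted p under 0.05 and the open points do not. *Cps1* stands at 0.68 (0.42 to 0.95), and the intervals of *Slc25a13* and *Arg1* end at -0.03 and start at 0.01.

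The 8 genes did not follow one order across the arrays. Among the miR-709 replicates, A was the highest in 4 genes, C in 2, and B and D in 1 each, while D was the lowest in 4 and C in 3. *Cps1* and *Arg1* were both lowest on Cel-239b replicate D and both lowest on D among the miR-709 replicates, but *Arg1* was highest on C and *Cps1* on A. *Glul*, *Asl*, *Nags* and *Slc25a15* were highest on Cel-239b replicate D among the controls, the array on which *Cps1* was lowest. Averaged without *Cps1* and relative to the control mean, the other 7 genes stood at 0.06, 0.07, 0.05 and -0.02 on miR-709 replicates A to D, and at -0.03 to 0.06 on the controls.

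Genes that bring nitrogen and bicarbonate to the cycle were mostly not called. Of 18 measured, 1 was higher and 0 were lower with miR-709, with a median log2 fold change of 0.06 beside the 0.01 of all genes. The shares to set beside this and each later list are 1.81% of all genes called higher and 1.47% called lower. The gene that rose was *Gpt*, alanine aminotransferase, which takes nitrogen off alanine. It went from 8.48, 8.57 and 8.67 on the Cel-239b replicates to 8.88, 8.87, 8.97 and 8.84 on the miR-709 replicates, so that the treatments did not overlap (log2 fold change 0.32, standard error 0.06, adjusted p = 0.0308). *Gpt* was called in 11 of 20 alternatives.

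Of 17 measured genes of ornithine, arginine, proline and polyamine metabolism, which draw on intermediates of the cycle, 0 were called and 0 had an unadjusted p under 0.05 in limma. The plain test of the methods was not counted over this list. The genes with the lowest p-values were *Aldh4a1*, which completes the breakdown of proline to glutamate (log2 fold change -0.19, adjusted p = 0.376), and *Aldh18a1*, which makes the precursor of proline and ornithine (-0.15, adjusted p = 0.381). The median of the list was 0.00.

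Amino acid breakdown feeds ammonia or glutamate to the cycle, though not at each of its steps. Of 25 measured genes of this breakdown, 3 were higher and 2 were lower, and 20 did not pass the test. Their median log2 fold change was 0.16. *Tat*, tyrosine aminotransferase, a classic gene of the glucocorticoid and glucagon response, rose from 8.77, 8.99 and 9.06 on the Cel-239b replicates to 9.61, 9.72, 9.48 and 9.41 on the miR-709 replicates (log2 fold change 0.62, standard error 0.09, adjusted p = 0.00763). *Hgd*, a later enzyme of tyrosine breakdown, rose by 1.03 on the log2 scale. *Kmo*, a kynurenine hydroxylase that was named after its value was seen, rose by 0.34. *Amt*, which releases ammonia from glycine in the glycine cleavage system, had a log2 fold change of -1.12 (adjusted p = 0.00261), and *Aass*, which starts lysine breakdown, had -0.40 (adjusted p = 0.0185). Of 20 alternatives, *Hgd* was called in 20, *Amt* in 19, *Tat* in 17, *Aass* in 13 and *Kmo* in 12. The plain test of the methods gave *Hgd* an adjusted p of 0.0344. It gave *Amt* 0.0804, *Tat* 0.105, *Aass* 0.114 and *Kmo* 0.116, none of them a call.

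Of 19 measured genes of hormone receptors, transcription factors and sirtuins that are known to act on the cycle, 2 were higher and 0 were lower, with a median log2 fold change of 0.08. *Hnf4a*, a nuclear receptor that keeps up hepatocyte gene expression, had log2 signals of 9.45, 9.43 and 9.31 on the Cel-239b replicates and 9.94, 9.95, 9.93 and 10.03 on the miR-709 replicates. These arrays were far apart relative to their spread, and the rise was 0.57 ± 0.06 (log2 fold change ± standard error, adjusted p = 0.00104). *Hnf4a* was called in 20 of 20 alternatives. *Gcgr*, the glucagon receptor, went from 7.88, 7.81 and 7.98 to 8.38, 8.26, 8.35 and 8.31 (log2 fold change 0.44, standard error 0.06, adjusted p = 0.00555). *Gcgr* was called in 18 of 20 alternatives, losing its call with the replicate letter as a fixed block and without miR-709 replicates C and D.

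Zonation, the split of labour between hepatocytes along the sinusoid, was followed with genes of either end. Of 13 measured periportal genes, the zone of the urea cycle, 1 was higher and 0 were lower. A log2 fold change above 0 was found in 12 of them, against 54.9% of all genes. Their median was 0.20, against 0.01 for all genes. The gene that rose was *Hsd17b13*, a lipid droplet protein (log2 fold change 0.32, adjusted p = 0.0352), called in 11 of 20 alternatives. Of 14 measured perivenous genes, the zone of *Glul*, 0 were called by limma and 1 had an unadjusted p under 0.05, with a median of 0.00. That gene was *Cyp2e1*, a cytochrome P450 of ethanol oxidation (log2 fold change 0.25, adjusted p = 0.128), and *Oat*, which turns ornithine into glutamate semialdehyde, had -0.13 (adjusted p = 0.426). A mean log2 signal of 6 was reached by 10 of the 13 periportal and 7 of the 14 perivenous genes, and changes of dim probe sets can be understated. The 2 zones were not tested against each other.

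**Figure D3:**
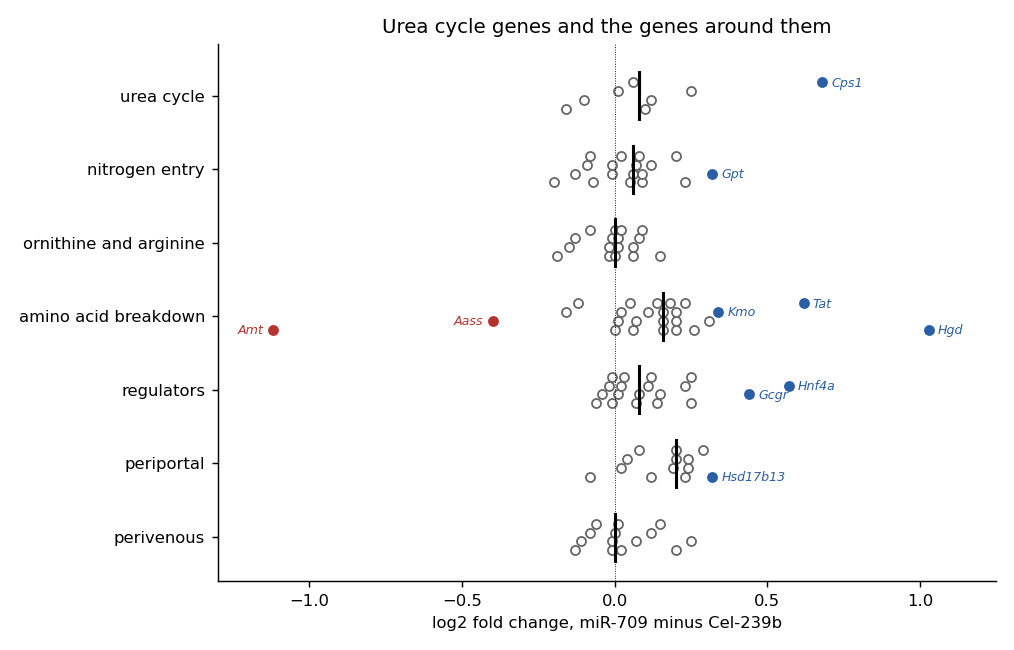
Log2 fold change, miR-709 minus Cel-239b, of the 8 measured urea cycle genes and of 6 lists of genes around them (circles; genes called by limma are filled and named, blue for higher and red for lower), with the median of each row as a black bar; the height of a circle within its row has no meaning. The median is 0.08 for the urea cycle, 0.20 for periportal genes and 0.00 for perivenous genes, against 0.01 for all genes. More of the perivenous genes are dim.

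The genes whose pattern over the 7 arrays was closest to that of *Cps1* were sought among the 10969 others whose mean log2 signal reached 5, by the root mean square difference of mean-centred log2 signals. The choice itself used the treatment difference, so a rise in these genes and low values on replicate D follow from it. They are no separate support for *Cps1*. The closest was *Slc25a47*, a mitochondrial carrier of the liver, with a difference of 0.07. It also had its lowest value on Cel-239b replicate D and its lowest with miR-709 on replicate D, and it rose by 0.58 on the log2 scale (adjusted p = 0.0210, called in 13 of 20 alternatives). *Ttpa*, the transfer protein of vitamin E, followed at 0.11 and rose by 0.72. *Nrg4*, a growth factor released by fat and other tissues, was at 0.12, with a log2 fold change of 0.50 that did not pass the test (adjusted p = 0.0681).

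Some markers of other cell types were lower on the arrays on which *Cps1* was higher. Of 12 measured stellate cell and myofibroblast markers, 3 were lower and 0 were higher. The 3 were *Acta2* (log2 fold change -1.34), *Tagln* (-1.25) and *Vim* (-0.40), genes of the cytoskeleton. *Acta2* and *Tagln* were called in 20 of 20 alternatives and *Vim* in 16. The other 9 markers of the list, collagens and *Des* among them, were not called, and the median of the list was -0.05. A mean log2 signal of 6 was reached by 4 of the 12, and changes of dim probe sets can be understated. Its summed linear signal was 5912 to 6277 with Cel-239b and 4262 to 4925 with miR-709, of which *Vim* alone made 88.9% to 90.5%. Without *Vim* the sums were 648 to 682 and 422 to 474. Of 7 measured cholangiocyte markers, *Krt19* was lower (-1.23, adjusted p = 0.0377) and 0 were higher, with a median of -0.27. An unadjusted p under 0.05 in limma was found in 4 of 7, where 15.0% of all genes passed. Besides *Krt19* these were *Krt7* (-0.29), *Sox9* (-0.30) and *Prom1* (-0.27), which were not called. A log2 fold change above 0 was found in 1 of 7. *Krt19* was called in 11 of 20 alternatives, with an adjusted p of up to 0.273. The list's summed signal was 1084 to 1235 with Cel-239b and 512 to 841 with miR-709, of which *Krt19* made 43.2% to 68.2%, and without it the sums overlapped, at 345 to 397 and 289 to 351. The mean of the cholangiocyte markers, again relative to the controls, was -0.18, -0.15, -0.51 and -0.50 on miR-709 replicates A to D.

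Hepatocyte markers other than *Cps1* gave 1 call of 10, *Hnf4a*, and a median log2 fold change of 0.05. Of these 10, 8 had a log2 fold change above 0, against 54.9% of all genes. *Fga* was at 0.43 and was not called (adjusted p = 0.0988 from limma). The summed linear signal of the 10 was 59178 to 60120 with Cel-239b and 59124 to 62974 with miR-709. The brightest genes weigh most in that sum, so a change in a dimmer marker such as *Hnf4a* or *Fga* hardly shows in it. Of 11 Kupffer cell and leukocyte and 10 sinusoidal endothelial markers limma called 0 and 0, and 0 and 1 had an unadjusted p under 0.05. A mean log2 signal of 6 was reached by 1 of the 11 and 0 of the 10, so a change in these dim markers can be understated. The summed signal of the Kupffer cell and leukocyte list, 1558 to 1895 against 1725 to 1974, was 89.2% to 91.6% *Cd68*, and its other 10 markers summed to 161 to 169 against 160 to 173. The endothelial list summed to 302 to 324 against 314 to 326, and all of these sums overlapped. RMA gives no marker a signal of 0, so absence cannot be read from these values. The part of other cell types in the rise of *Cps1* was not tested.

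**Figure D4:**
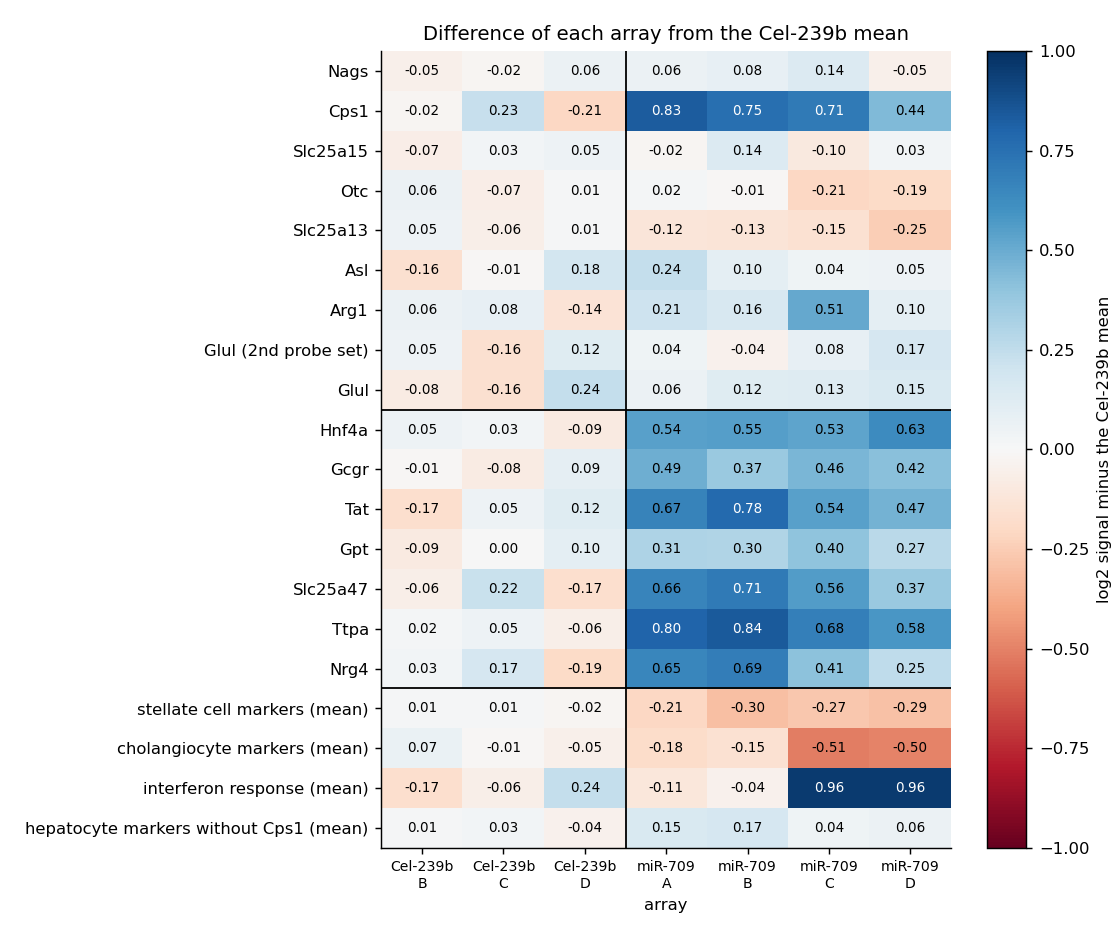
Log2 signal of each array minus the Cel-239b mean, for the urea cycle genes in the order of the cycle (top), other named genes (middle) and the means of 4 gene lists (bottom); columns are arrays, blue is higher and red is lower, and colours end at 1 and -1. *Cps1* is at 0.44 to 0.83 on the miR-709 arrays, and the interferon list is at 0.96 on replicates C and D.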

How the data were processed

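The authors hybridised 1 Affymetrix mouse gene 1.0 ST array per replicate and deposited log2 signals per probe set, made in Partek with RMA by the submitters' processing notes (versions not given in the sources used here). Raw scans were not analysed here. Probe sets were named through GEO's platform annotation, with symbols updated by gene number in RefSeq (21698 of 21789 with 1 symbol matched). Probe sets with several symbols (1621) or none (5443) were left out, and the brightest probe set stood for each of 999 genes with more than 1. All 7 arrays entered limma (version 3.58.1, R 4.3.3; 2 groups, 2-sided, Benjamini-Hochberg over 19938 genes), which was tested on simulated data.

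The genes and lists were chosen with earlier results of these data known. Named by rule were all measured members, their paralogs, and *Rab11b*, *Dync1li1* and *Cyp2c29*. The rule also took the called genes with the 4 lowest p-values of each list (or the 2 lowest p-values if none was called). It added the 3 genes closest in pattern to each called member. Its picks from the interferon, Kupffer cell and leukocyte, and endothelial lists are left out of the text. *Kmo*, *Fga*, *Cd68* and some other markers were named outside the rule. Alternatives were limma-trend, the 1-way test of the methods, probe set rules, filters at a mean log2 signal of 5 or 6, quantile, cyclic loess and median scaling, array weights, replicate letters as a block and each array left out. Leaving out miR-709 replicates C and D together was added after seeing the data.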

Additional observations from a re-analysis of the deposited data

How the results depend on the processing

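*Cps1* kept its direction under all 20 alternatives and its call under 14. The plain 1-way test of the methods called 0 members higher at an adjusted p under 0.05, with the same log2 fold change of 0.68. The study counted genes by a p-value that it does not describe as adjusted, and that count was not repeated here. Leaving out miR-709 replicates C and D together, an alternative chosen after seeing the data, also called 0 (*Cps1* at 0.79). With single arrays left out, 0 to 1 members were called higher and *Cps1* ran from 0.58 to 0.80, and the loss of Cel-239b replicate B or D or miR-709 replicate B or C ended its call. No member was called lower under any alternative run (0 in each).

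*Slc25a15* changed sign with quantile normalization (-0.02), with cyclic loess (-0.02) and with single arrays left out (-0.03 to 0.05), and *Otc* without replicates C and D (0.01). Neither was called in any of these. The cause was not tested. The sources used here do not say whether a letter pairs arrays across treatments, so the letters were not taken to pair them. Deviations of arrays with the same letter correlated at 0.02 (B), 0.02 (C) and 0.05 (D), and those with different letters at -0.06 to 0.02. With so few arrays these values cannot decide whether the letters are pairs. With the letter as a fixed replicate block, *Cps1* was at 0.63 (adjusted p = 0.0182) and 1 member was called higher, while calls over all genes went from 293 lower and 361 higher to 221 and 180. By the 1-way test with adjusted p, 113 genes were lower and 113 higher. With single arrays left out of limma there were 181 to 244 and 180 to 294, and without replicates C and D 92 and 76. The filter at 6 left out *Otc*, and over genes of at least that signal 366 were lower and 555 higher.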

Other observations

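The 2 probe sets that carry both *Ass1* and *Gm5424* cannot be assigned to one of these genes, and no test was made on them. Probe set 10363541 had log2 signals of 11.13, 11.10 and 11.27 on Cel-239b replicates B to D and 11.24, 11.18, 11.26 and 11.26 on miR-709 replicates A to D. Probe set 10471154 had 11.04, 11.00 and 11.15, and 11.12, 11.06, 11.16 and 11.12. The treatments overlapped in both, with means that differed by 0.07 and 0.05.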
